A study of Mus musculus with 6 samples.

Results

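The genes described here are those of the Wnt pathway at and near the cell surface: the Wnt ligands, their Frizzled receptors and Lrp co-receptors, the secreted R-spondins and antagonists, and a core of intracellular and nuclear factors. They were chosen by symbol alone, as every row whose name starts with Wnt, Fzd, Sfrp, Dkk or Rspo followed by a digit, together with Frzb, Wif1, Lrp5, Lrp6, Axin2, Ctnnb1, Lef1, Tcf7, Tcf7l1, Tcf7l2, Rnf43, Znrf3 and Nkd1. That gave 55 of the 30438 rows of the count table: 19 Wnt ligands, 10 Frizzled genes, 2 co-receptors, 4 R-spondins, 11 secreted antagonists, 4 ligase and feedback genes, and 5 genes for beta-catenin and its TCF partners. Axin1, which the rule also names, had no row under that symbol in the count table.

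RNA came from HEI-OC1, a conditionally immortalised auditory cell line of mouse cochlear origin, used as a model of hair cell injury, in 2 groups of 3 libraries. The control group was HEI-OC1 of wild-type genotype, and the other was the same line labelled as an Nrf2 knockout. Nrf2, encoded by Nfe2l2, is a transcription factor for antioxidant genes. Both groups were grown without a recorded drug at 33 °C and 10% CO2 with 10% serum. Whether the knockout cells were 1 clone, and where the gene was edited is not stated in the labels. Nor do the labels say that replicates were separate cultures, so p-values measure only how these samples spread, and that spread may be technical.

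Wnt proteins are secreted lipid-modified ligands that bind a Frizzled receptor together with Lrp5 or Lrp6. The bound complex stops the destruction of beta-catenin, which then works with TCF and LEF factors on target promoters, while other Wnt signals run through planar cell polarity proteins. In the cochlea the pathway is known for its part in the division of prosensory and supporting cells and in hair cell formation.

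The libraries held between 29130007 and 51285343 counts. Nfe2l2 went against its label: the controls had 74.2, 126 and 96.7 CPM (reads of the gene scaled by library size and the TMM factor), and those labelled Nrf2 KO had 396, 236 and 205. Its transcript was higher there (log2 fold change 1.49, SE 0.33, adjusted p = 0.0456 by edgeR), so a direction below goes by the label, Nrf2 KO against control. A transcript count says nothing of an edit that leaves the RNA in place. The call was lost with upper-quartile scaling (0.0526), with library size alone (0.0593), with any control library left out (replicate 1, 0.167; 2, 0.102; 3, 0.202) or with Nrf2 KO replicate 2 (0.102) or 3 (0.0784) left out. Nqo1, an NRF2 target, was at 580, 1095 and 940 CPM in the controls against 121, 462 and 474 (log2 fold change -1.31, SE 0.55, adjusted p = 0.204 by edgeR, 0.0315 with the replicate number as a block and 0.0476 without Nrf2 KO replicate 1). Nrf2 KO replicate 1 was the smallest library and stood apart from replicates 2 and 3 of its group. With library totals allowed for, its chi-square per degree of freedom against them was 484 and 419, beside 15.3 between replicates 2 and 3. Control replicate 1 was at 158 and 71 against control replicates 2 and 3, beside 24.3 between those. Members whose call changed without Nrf2 KO replicate 1 are given with and without it, and other members mostly only with it.

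The labels call the cells cochlear stem cells. Of the markers set out for that identity, Sox2 and the hair cell factor Atoh1 had 0 counts in all 6 libraries, while 8 of 13 markers of supporting and prosensory cells could be tested. Summed over the list, fibroblast and otic mesenchyme markers were at 13370 to 14157 CPM in the controls against 11808 to 16455, with 3 of 8 tested members higher (Col1a1, Col1a2 and Pdgfra), where 4.83% of all tested genes were. Col3a1 and Vim of the same list had every Nrf2 KO library below the controls and were not called (log2 fold changes -0.66, SE 0.19, and -0.59, SE 0.22). The summed hair cell list was at 33.4 to 45.5 CPM in the controls against 62.7 to 76.5. Of its 11 genes 2 were tested: Myo7a was higher, from a mean of 1.32 to 20.3 CPM, and Myo6, at 37.3 and 48.3 CPM, was not called. Among the untested genes, mean CPM was lower in the Nrf2 KO group for Cdh23 (0.252 to 0.0975), Espn (0.182 to 0.0460) and Gfi1 (0.0150 to 0). It was higher there for Pou4f3 (0.0320 to 0.0588) and Otof (0 to 0.0204). Sox9 and Gata3 of the supporting cell list were higher, Laptm5 of the leukocyte list and Mcam of the endothelial list were lower, and the epithelial list was at most 0.516 CPM in any library. How far such marker differences bear on the Wnt genes was not tested. In bulk RNA, fewer cells of a type and less RNA per cell cannot be told apart.

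Of the 55 members, 28 had enough counts to be tested, 15 had counts but no more than 10 in any library, and 12 had 0 counts in every library. The 12 were the ligands Wnt3a, Wnt5a, Wnt8a, Wnt8b and Wnt9b, the receptors Fzd6 and Fzd10, the R-spondins Rspo3 and Rspo4, and the antagonists Dkk1, Dkk2 and Sfrp1. A count of 0 allows up to 3 counts, or 0.0585 to 0.103 CPM (library size alone) depending on the library, for counting error only. The gene symbols follow rat names, so a 0 says only that no read was counted under that symbol. The 15 with few counts were Wnt1, Wnt3, Wnt7a, Wnt7b, Wnt9a, Wnt10b, Wnt11, Fzd9, Rspo2, Nkd1, Dkk3, Frzb, Sfrp2, Sfrp5 and a row named Dkk1-2, and no difference could be detected in them at this depth. By the authors' deposited table of 1 FPKM value per group, a level per length, 21 members reached 1 FPKM in at least 1 group.

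Among the 28 tested members 3 rose and 2 fell at an adjusted p under 0.05 by edgeR's quasi-likelihood test. The higher ones were the receptor Fzd1, the R-spondin Rspo1 and the ligand Wnt4, and the lower ones were the ligand Wnt6 and the antagonist Sfrp4. The 5 are 17.9% of the tested members, where 8.28% of all 14618 tested genes were called (4.83% higher and 3.45% lower). At an unadjusted p under 0.05, 7 members were higher and 6 lower, beside 25% of all genes (13.4% and 11.6%). With the replicate number as a block, 3 members were higher and 6 lower, beside 18.3% of all genes (10.4% and 7.92%). DESeq2 called 6 members in each direction, beside 20% of all genes (10.9% and 9.02%). Leaving out Nrf2 KO replicate 1 gave 5 higher and 6 lower, beside 30.2% of all genes (15.6% and 14.5%). Without both replicate 1 libraries 16 members were called, 9 of them higher, beside 46.1% of all genes. Ctnnb1, Fzd5 and Fzd8 (higher) and Wif1 (lower) were called in that fit alone. Leaving out 1 of the other 5 libraries left 1 or 2 members called, Wnt6 in every such fit. The share of all genes called was then 2.09% without control replicate 1, 2.02% without control replicate 2 and 1.3% without control replicate 3. It was 2.53% without Nrf2 KO replicate 2 and 2.56% without Nrf2 KO replicate 3. In these 5 fits 3 or 4 members were higher and 4 to 6 lower at an unadjusted p under 0.05. Of the 14865 to 15035 genes tested in these fits, 1230 to 1622 were higher and 1028 to 1342 lower at that threshold. Limma-voom called 4 members beside 8.57% of all genes, and the shares of all genes called were 8.39% with upper-quartile scaling or DESeq2 size factors, 8.08% with library size alone, 4.83% with no filter on low counts and 9.02% with a filter of 1 CPM. In 15 members the 2 groups did not overlap, 8 with every Nrf2 KO library above every control and 7 below. That is 53.6% of the tested members against 34.2% of all tested genes (17.1% in each direction). Wnt10a and Rnf43, both among the 15, had the filter's minimum of 10 counts in every library only in the group where each is high. Both also count among the members at an unadjusted p under 0.05. Wnt10a is among the lower calls with the block, by DESeq2 and without Nrf2 KO replicate 1. The members' median log2 fold change was 0.14, with 16 of 28 positive, beside a median of 0.04 and 7840 positive of 14618 for all genes.

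**Figure D1:**
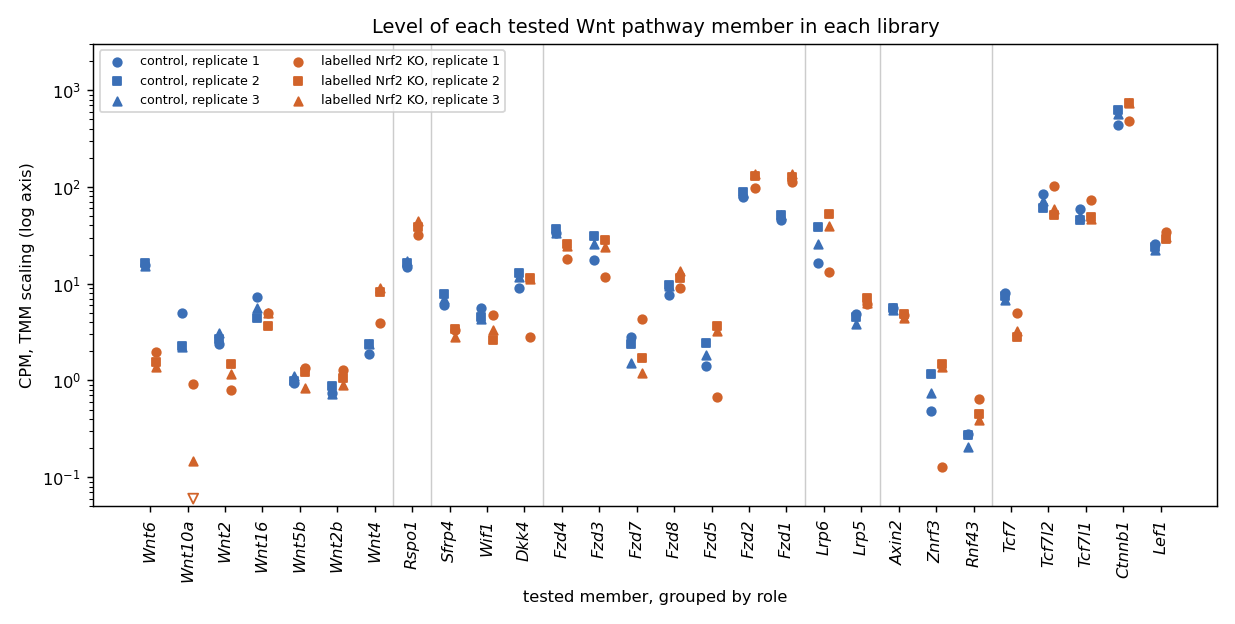
CPM with TMM scaling (log axis) of the 28 tested members in each library, grouped by role, with marker shape for the replicate number and colour for the group. The open triangle marks Nrf2 KO replicate 2 for Wnt10a, which had 0 counts. Wnt6 lies between 15.1 and 16.5 CPM in the controls and between 1.36 and 1.95 in the other group.

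RefSeq promoter windows (build GRCm38.p6, 250 bases before to 50 after a start) were on hand for 37 of the 55 members, among them 4 of the 5 called. The 250 bases before the start are shown for those 4, since they are the members whose level changed and whose start the table holds. They are Wnt6 (chr1:74771642-74771891, plus strand), Wnt4 (chr4:137277385-137277634, plus strand), Rspo1 (chr4:124986180-124986429, plus strand) and Fzd1 (chr5:4758217-4758466, minus strand), each 5′ to 3′ in the direction of the gene. Capitals mark a match, on either strand, to the TCF and LEF core CTTTGA or to the antioxidant response element TGACNNNGC.
Wnt6: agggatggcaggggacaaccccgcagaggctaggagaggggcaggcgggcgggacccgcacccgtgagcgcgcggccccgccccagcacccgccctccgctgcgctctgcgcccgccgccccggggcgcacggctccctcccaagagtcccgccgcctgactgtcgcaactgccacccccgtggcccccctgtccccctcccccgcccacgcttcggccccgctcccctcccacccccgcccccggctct
Wnt4: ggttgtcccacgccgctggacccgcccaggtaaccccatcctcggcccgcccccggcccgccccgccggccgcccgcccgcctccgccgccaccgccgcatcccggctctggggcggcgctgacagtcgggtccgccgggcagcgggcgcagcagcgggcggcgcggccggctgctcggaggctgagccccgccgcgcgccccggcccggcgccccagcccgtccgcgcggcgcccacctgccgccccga
Rspo1: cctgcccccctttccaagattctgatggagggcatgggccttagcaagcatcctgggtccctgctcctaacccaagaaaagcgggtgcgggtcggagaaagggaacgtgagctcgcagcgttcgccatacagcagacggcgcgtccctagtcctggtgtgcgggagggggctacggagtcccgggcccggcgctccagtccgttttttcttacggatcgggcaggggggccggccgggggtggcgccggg
Fzd1: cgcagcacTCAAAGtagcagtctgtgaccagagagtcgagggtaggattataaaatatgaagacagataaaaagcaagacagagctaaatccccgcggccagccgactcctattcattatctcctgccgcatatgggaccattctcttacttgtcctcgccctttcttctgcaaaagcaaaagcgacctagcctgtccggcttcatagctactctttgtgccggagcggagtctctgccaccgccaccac
Of these 4 stretches, that of Fzd1 held 1 match, to the TCF and LEF core on the opposite strand, and the others held 0. The stretches differed in base composition: G and C made up 79.6% of the Wnt6 stretch, 85.2% of Wnt4, 66.8% of Rspo1 and 51.2% of Fzd1. Over whole 300-base windows, the TCF and LEF core was in 6 of 47 member windows (12.8%) and in 16.0% of all 32851 windows. The antioxidant response element was in 9 of 47 (19.1%) and in 12.4% of all windows. The 2 motifs can overlap, since the first ends and the second begins with TGA, some genes have several windows, and a match is only a description of the letters.

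Of the 7 Wnt ligands tested, Wnt4 rose, Wnt6 fell and the other 5 were not called. Of all tested genes 4.83% were called higher and 3.45% lower. The ligand with the highest level differed between the groups. By the authors' deposited FPKM, Wnt6 made up 59.0% of the summed Wnt ligand level in the control group and 9.23% in the group labelled Nrf2 KO, while Wnt4 made up 14.2% and 68.0%. In the authors' deposited table the summed ligand level was 10.6 FPKM in the control and 6.90 FPKM in the other group.

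Wnt6, a ligand best known from epithelia and the embryonic ectoderm, measured 15.5, 16.5 and 15.1 CPM in control replicates 1 to 3 and 1.95, 1.55 and 1.36 in the Nrf2 KO replicates. All libraries labelled Nrf2 KO were low and the groups lay far apart. The mean fell from 15.7 ± 0.711 to 1.62 ± 0.299 CPM (SD, n = 3 each; log2 fold change -3.28, SE 0.22, adjusted p = 0.00177 by edgeR). That is a level 9.71-fold lower, and the call held whichever of the 6 libraries was left out (adjusted p from 0.00018 to 0.0244).

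Wnt10a, a ligand needed for teeth and hair, lies next to Wnt6 on the mouse map (RefSeq, GRCm38.p6), with no protein-coding gene between them. It measured 5.0, 2.27 and 2.19 CPM in the controls against 0.926, 0 and 0.146, from 196, 101 and 85 counts against 29, 0 and 6. Replicate 1 was the highest of its group on both sides, and the groups did not overlap. The log2 fold change of -3.23 (SE 1.19) was not called (adjusted p = 0.160 by edgeR), and was called with the replicate block (-3.66, SE 0.77, adjusted p = 0.0367) and by DESeq2 (adjusted p = 0.0448). Without Nrf2 KO replicate 1 it was -5.49 (SE 0.88, adjusted p = 0.00684). Wnt10a passed the filter on low counts through the control group, where it is high.

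**Figure D2:**
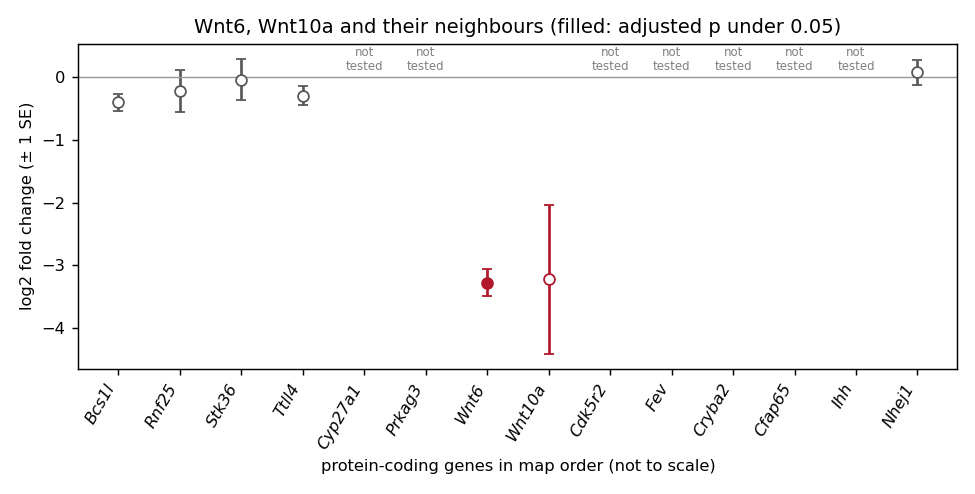
Log2 fold change with 1 standard error for the protein-coding genes around Wnt6 and Wnt10a in the order of the mouse map, not to scale. Filled points were called at an adjusted p under 0.05 and open points were not. Wnt6 and Wnt10a sit at -3.28 and -3.23, and the 5 other tested genes between -0.40 and 0.08.

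The neighbours of the pair did not share its fold change. On the side of Wnt6, Prkag3 and Cyp27a1 had at most 2 and 4 counts in a library, and the next tested genes were Ttll4 (log2 fold change -0.30, SE 0.15), Stk36 (-0.04, SE 0.33), Rnf25 (-0.22, SE 0.33) and Bcs1l (-0.40, SE 0.14). Beyond Wnt10a, Cdk5r2, Fev, Cryba2 and Cfap65 had 0 counts throughout, Ihh (at most 43 counts) was not tested, and Nhej1 had a log2 fold change of 0.08 (SE 0.21). None of these 5 tested neighbours was called (adjusted p from 0.139 to 0.966 by edgeR). The longest exact run shared by mouse transcripts of Wnt6 and Wnt10a was 19 bases. Members that neighbour each other directly formed 3 other pairs, Wnt3a with Wnt9a, Wnt3 with Wnt9b, and Wnt1 with Wnt10b, of which no gene had more than 10 counts in a library.

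Wnt4, a ligand required for kidney tubules and the female gonad, measured 1.89, 2.36 and 2.40 CPM in the controls against 3.89, 8.29 and 9.02. Every Nrf2 KO library was above every control library, and replicate 1 was the lowest of them. The mean rose from 2.22 ± 0.284 to 7.07 ± 2.77 CPM (SD, n = 3 each; log2 fold change 1.67, SE 0.36, adjusted p = 0.0433 by edgeR), or 3.19-fold. The call was lost by limma-voom (adjusted p = 0.0566), and with any control library left out (0.174, 0.144 and 0.186 for replicates 1 to 3) or either of the later Nrf2 KO libraries (0.136 for replicate 2, 0.138 for replicate 3).

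Wnt2, a ligand known from lung and vascular development, was at 2.37, 2.68 and 3.09 CPM against 0.798, 1.47 and 1.17. All 3 Nrf2 KO libraries were below the controls. With a log2 fold change of -1.24 (SE 0.31) it was not called (adjusted p = 0.0604 by edgeR), but it was with the replicate block (0.0307), by DESeq2 (0.00138), with upper-quartile scaling (0.0486), with library size alone (0.0495) and without Nrf2 KO replicate 1 (0.0208). Wnt16, a ligand of bone, was at 7.20, 4.41 and 5.59 against 4.95, 3.67 and 4.98 CPM, with overlapping groups. The other tested ligands, Wnt2b (log2 fold change 0.46, SE 0.28) and Wnt5b (0.15, SE 0.29), were at 0.722 to 1.34 CPM in every library and were not called.

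R-spondins amplify Wnt signals by binding Lgr receptors and removing the ligases Rnf43 and Znrf3, which otherwise take Frizzled off the surface. Rspo1 was the 1 R-spondin with enough counts to test, at 15.01, 16.4 and 17.2 CPM in the controls against 31.9, 38.2 and 44.7. The groups did not overlap. Rspo1 rose 2.37-fold, from 16.2 ± 1.09 to 38.3 ± 6.41 CPM (SD, n = 3 each; log2 fold change 1.24, SE 0.18, adjusted p = 0.0117 by edgeR). The call ended with any control library left out (0.0735, 0.0700 and 0.0853 for replicates 1 to 3) and with Nrf2 KO replicate 2 (0.0542) or 3 (0.0519) left out. Rspo2 had 2 counts in 1 library and 0 in the rest. Of the R-spondin receptors, Lgr4 was at 289, 317 and 305 CPM against 169, 240 and 237 (log2 fold change -0.49, SE 0.19, adjusted p = 0.176 by edgeR). Lgr5, too low to test, went the other way, with 6, 6 and 1 counts in the controls against 36, 14 and 7. Lgr6 had 2 counts in 1 library and 0 in the rest.

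Among the secreted antagonists, which bind Wnts or their co-receptors outside the cell, 3 of 11 were tested and 1 was lower, where 3.45% of all tested genes were. Sfrp4, a Frizzled-related protein that binds Wnts, measured 5.997, 7.89 and 6.99 CPM in the controls against 3.29, 3.38 and 2.79. The groups lay apart, and the mean fell from 6.96 ± 0.949 to 3.15 ± 0.315 CPM (SD, n = 3 each; log2 fold change -1.14, SE 0.22, adjusted p = 0.0269 by edgeR). The call ended with any control library left out (0.0813, 0.125 and 0.155 for replicates 1 to 3) and with Nrf2 KO replicate 2 (0.0970) or 3 (0.116) left out.

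Dkk4, which blocks Lrp5 and Lrp6, had the highest antagonist FPKM in both groups by the authors' deposited table (6.16 in the control and 4.54 in the other). Its CPM was 8.93, 13.0 and 11.7 against 2.81, 11.5 and 11.1, so that 1 library, Nrf2 KO replicate 1, was low and the other Nrf2 KO libraries lay within the control range. The fold change was not called (log2 fold change -0.40, SE 0.52, adjusted p = 0.705 by edgeR, and 0.0093 on the log2 scale without Nrf2 KO replicate 1). Wif1, a Wnt inhibitory factor, was at 5.61, 4.50 and 4.31 against 4.69, 2.59 and 3.35 CPM, with overlapping groups (adjusted p = 0.410 by edgeR).

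Of 10 Frizzled genes 7 were tested, and 1 was called higher, where 4.83% of all tested genes were. By the authors' deposited FPKM, Fzd2 was the main receptor in both groups, with 60.8% of the summed Frizzled level in the control and 59.3% in the group labelled Nrf2 KO. In the authors' deposited table Fzd1 went from 15.4% to 26.7% of that sum, from 9.23 to 23.0 FPKM, and the sum itself from 59.8 to 86.4 FPKM. In the authors' deposited table Fzd3 was at 7.41 and 6.25 FPKM and Fzd4 at 4.12 and 2.68 FPKM.

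**Figure D3:**
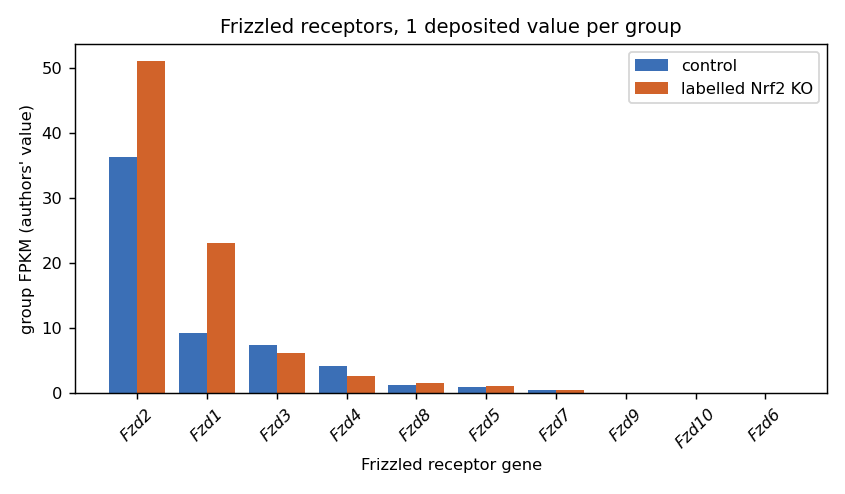
Group FPKM of the 10 Frizzled genes as deposited by the authors, 1 value per group and therefore without an error bar. Fzd2 is the highest in both groups (36.4 and 51.2 FPKM), and Fzd1 stands at 9.23 in the control and 23.0 in the group labelled Nrf2 KO.

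Fzd1 measured 45.9, 51.1 and 51.8 CPM in the controls against 112, 127 and 137. The replicates of each group lay close together and the groups far apart. The mean rose 2.53-fold, from 49.6 ± 3.24 to 125 ± 12.8 CPM (SD, n = 3 each; log2 fold change 1.34, SE 0.15, adjusted p = 0.00529 by edgeR). Of the fits with a library left out, that without control replicate 3 lost the call (adjusted p = 0.0572).

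Fzd2, of the same receptor subgroup as Fzd1 and Fzd7, was at 79.5, 88.2 and 86.9 against 97.3, 129 and 137 CPM. Every Nrf2 KO library was above the controls, with a log2 fold change of 0.51 (SE 0.17) that was not called (adjusted p = 0.132 by edgeR). It was called by DESeq2 (0.0337) and without Nrf2 KO replicate 1 (0.00677). Fzd7 was at 2.83, 2.36 and 1.52 against 4.34, 1.71 and 1.19 CPM, with overlap. Mouse transcripts of Fzd1 share exact runs of at most 47 bases with those of Fzd2 and of Fzd7. Whether any reads were short enough to be split between them was not tested.

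Fzd4, a receptor that also binds the non-Wnt ligand norrin, was at 33.1, 36.7 and 33.6 CPM against 18.0, 25.9 and 24.5, with all Nrf2 KO libraries below the controls. Its log2 fold change of -0.60 (SE 0.18) was not called (adjusted p = 0.102 by edgeR), but it was with the replicate block (0.0442), by DESeq2 (0.0191) and without Nrf2 KO replicate 1 (0.0251). Fzd3, Fzd5 and Fzd8 had overlapping groups and adjusted p-values between 0.404 and 0.786 by edgeR.

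The co-receptors Lrp5 and Lrp6 were not called. Lrp6, the more abundant by the authors' deposited FPKM (3.28 and 4.18 against 0.694 and 1.03 for Lrp5), was at 16.4, 38.2 and 25.7 CPM in the controls against 13.1, 52.3 and 39.3. Replicate 1 was the lowest in each group and the groups overlapped (log2 fold change 0.38, SE 0.54, adjusted p = 0.732 by edgeR). With 1 library left out, the log2 fold change of Lrp6 ran from -0.03 to 0.77, and it was called in 0 of 6 fits. Lrp5 was at 4.87, 4.50 and 3.82 against 6.22, 7.13 and 6.32 CPM, without overlap (log2 fold change 0.58, SE 0.20, adjusted p = 0.140 by edgeR). It was called by DESeq2 (0.0165) and without Nrf2 KO replicate 1 (0.0457).

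**Figure D4:**
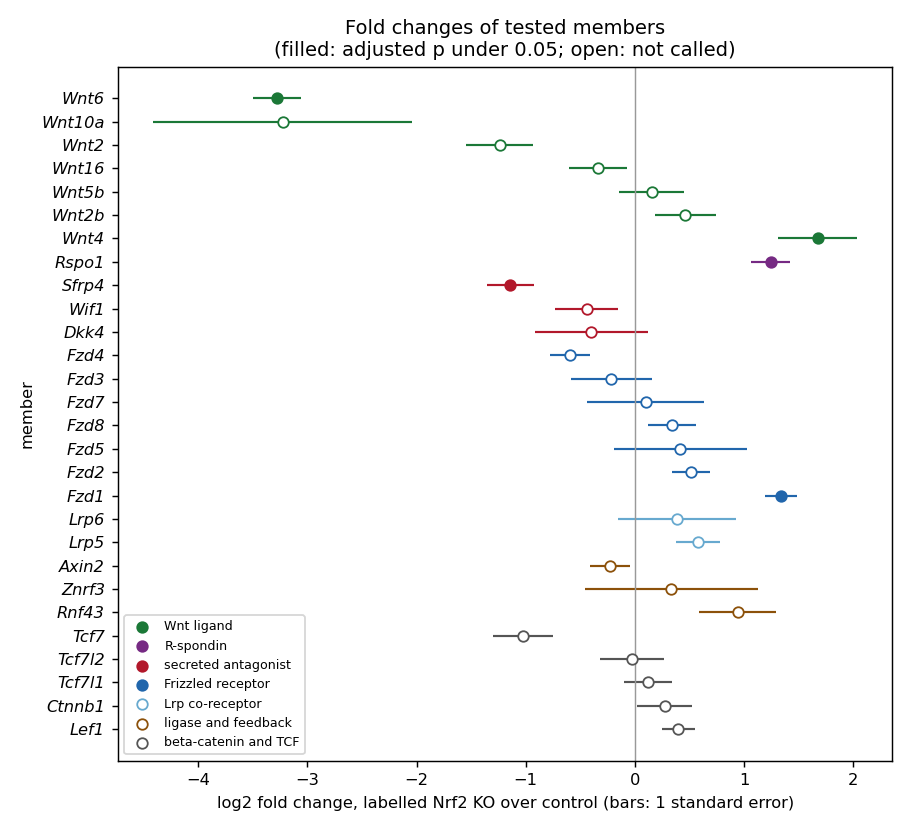
Log2 fold change of each tested member, Nrf2 KO against control by label, with 1 standard error, coloured by role. Filled points passed an adjusted p of 0.05 by edgeR and open points did not. Fzd1, Rspo1 and Wnt4 lie at 1.34, 1.24 and 1.67, and Wnt6 and Sfrp4 at -3.28 and -1.14.

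The negative regulators and feedback genes gave no call by edgeR and also 0 by DESeq2. By edgeR 1 of the 3 tested was higher at an unadjusted p under 0.05, where 13.4% of all tested genes were. Rnf43, the 1 gene at that unadjusted p, had at least 10 counts in every library only in the Nrf2 KO group, where it is high. Znrf3 had that only in the control group, since its lowest count was 19 there and 4 in the Nrf2 KO group. Axin2, a scaffold of the destruction complex whose transcription is a standard readout of beta-catenin activity, was at 5.67, 5.56 and 5.29 CPM against 4.79, 4.87 and 4.42. The groups were close but did not overlap (log2 fold change -0.23, SE 0.19, adjusted p = 0.516 by edgeR). Znrf3, a ligase that removes Frizzled, was at 0.485, 1.17 and 0.748 against 0.128, 1.49 and 1.39 CPM, from 4 counts in Nrf2 KO replicate 1. Its log2 fold change was 0.34 (SE 0.79). With 1 library left out it ran from -0.06 to 0.83, and Znrf3 was called in 0 of 6 fits. Rnf43, its relative, was at 0.206 to 0.281 CPM in the controls against 0.389 to 0.638 (log2 fold change 0.94, SE 0.35, adjusted p = 0.160 by edgeR).

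Ctnnb1, which encodes beta-catenin, had the highest level per length of all members in both groups by the authors' deposited table, 105 and 128 FPKM. It was at 439, 622 and 565 CPM in the controls against 480, 745 and 742, with overlap (log2 fold change 0.27, SE 0.25, adjusted p = 0.573 by edgeR). With 1 library left out, its log2 fold change ran from 0.14 to 0.45, and it was called in 0 of 6 fits. A transcript level does not show the amount of beta-catenin protein, which is set by its destruction. Among its DNA-binding partners, Tcf7l2 and Tcf7l1 were the most abundant (18.9 and 14.0 FPKM in the control, in the authors' deposited table) and had overlapping groups.

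Tcf7, a TCF factor that is itself a target of the pathway, was at 8.04, 7.51 and 6.78 CPM against 4.95, 2.79 and 3.26. All 3 Nrf2 KO libraries were below the controls, with a log2 fold change of -1.03 (SE 0.27) that was not called (adjusted p = 0.0730 by edgeR). It was called with the replicate block (0.0316), by DESeq2 (0.00385) and without Nrf2 KO replicate 1 (0.00398). Lef1, another partner and target, was at 25.5, 24.0 and 22.04 against 34.5, 29.1 and 30.7 CPM, all above the controls (log2 fold change 0.40, SE 0.15, adjusted p = 0.160 by edgeR and 0.0438 by DESeq2). Tcf7 and Lef1 thus had fold changes of opposite sign.

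In several members replicate 1 stood apart from replicates 2 and 3 in both groups. On the log2 scale of CPM + 0.1, Lrp6 in replicate 1 was 0.93 below the mean of replicates 2 and 3 in the control group (a difference of -0.93) and 1.78 below it in the group labelled Nrf2 KO (-1.78). The same differences were -0.83 and -2.75 for Znrf3, -0.67 and -1.15 for Fzd3, and -0.56 and -2.19 for Fzd5. Replicate 1 was higher in both groups for Wnt10a (1.13 and 2.71) and Fzd7 (0.55 and 1.54). The difference had the same sign in both groups for 23 of the 28 members (82.1%) and for 80.9% of all tested genes, so the members were close to the genes as a whole. What a replicate number marks is not given, and its part in these values was not tested.

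**Figure D5:**
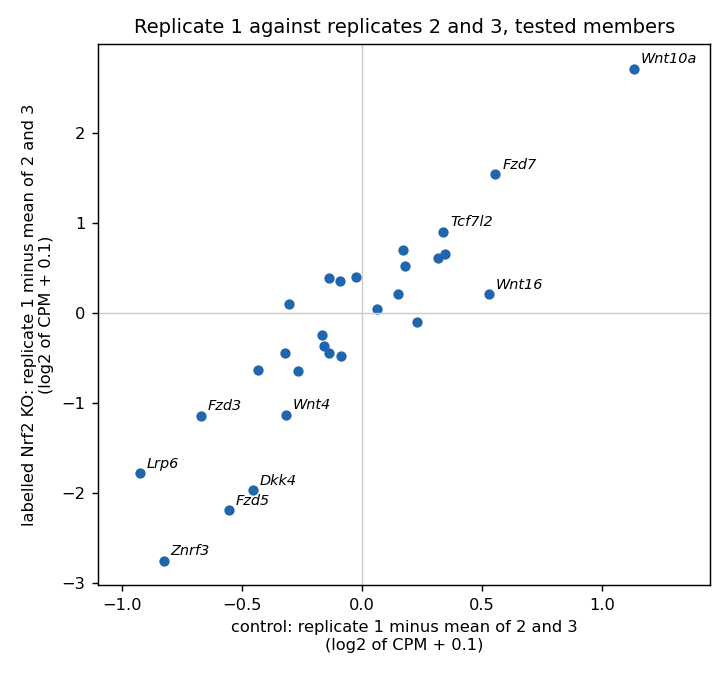
Replicate 1 minus the mean of replicates 2 and 3 (log2 of CPM + 0.1) for the tested members, in the control group on the horizontal axis and in the group labelled Nrf2 KO on the vertical axis. Lrp6, Znrf3, Fzd3 and Fzd5 sit low on both axes and Wnt10a and Fzd7 high on both.

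The list of other pathway genes covered 81 genes of ligand secretion, co-receptors, the intracellular relay, the destruction complex, nuclear co-factors and planar cell polarity. Of 67 tested, 4 were higher and 2 lower, or 8.96% beside 8.28% of all genes, with a median log2 fold change of 0.17. With the replicate block 6 were higher and 5 lower, or 16.4% beside 18.3% of all genes. Dact1, which binds Dishevelled, the first relay below Frizzled, rose from 8.70 ± 0.289 to 65.3 ± 2.94 CPM (SD, n = 3 each). Its libraries were at 8.96, 8.39 and 8.77 against 62.1, 65.9 and 67.8 CPM, with a log2 fold change of 2.91 (SE 0.14, adjusted p = 0.00104 by edgeR). Dact1 passed whichever of the 6 libraries was left out.

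The other 5 were Vangl1, Vangl2, Prickle1, Daam1 and Csnk1g3. Vangl1, a membrane protein of planar cell polarity, rose from 51.5 ± 2.15 to 105 ± 19.1 CPM (SD, n = 3 each), while its relative Vangl2, the main polarity gene of hair cells, fell from 1.73 ± 0.214 to 0.421 ± 0.116 CPM (log2 fold changes 1.03, SE 0.18, and -2.02, SE 0.32). Prickle1, a cytoplasmic partner, and Daam1, a formin, were higher (0.73, SE 0.14, and 1.11, SE 0.16). Csnk1g3, a casein kinase of the relay, was lower (-0.54, SE 0.12). These 5 each lost the call without any 1 of control replicates 1, 2 and 3 and Nrf2 KO replicates 2 and 3 (adjusted p from 0.0524 to 0.243), and Csnk1g3 also with library size alone (0.0565) and with no filter on low counts (0.0813).

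Textbook transcriptional targets of beta-catenin formed a list of 40 genes, of which 6 are also members described above and 2 are in the other pathway list. Of 31 tested, 5 were higher and 1 lower, or 19.4% beside 8.28% of all genes, with a median log2 fold change of 0.43. The replicate block gave 9 higher and 4 lower, or 41.9% beside 18.3% of all genes. Bambi, a decoy receptor of TGF-beta signals, rose from 1.71 ± 0.125 to 8.18 ± 0.252 CPM (SD, n = 3 each; log2 fold change 2.25, SE 0.20) and passed whichever of the 6 libraries was left out. Ccnd1, which encodes cyclin D1, rose from 69.4 ± 9.34 to 223 ± 68.7 CPM (1.69, SE 0.28).

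Sox9, a factor of the otic placode, Bmp4, a growth factor, and Ephb3, an ephrin receptor, were also higher (log2 fold changes 2.19, SE 0.27, 1.25, SE 0.19, and 1.08, SE 0.16). Lbh, a transcriptional regulator, was lower (-1.68, SE 0.34). Myc, a growth regulator, was at 185, 131 and 158 CPM against 95.7, 48.4 and 55.9, all below the controls (log2 fold change -1.25, SE 0.30, adjusted p = 0.0575 by edgeR). It was called with the replicate block (0.0114), by DESeq2 (0.00232), by limma-voom (0.0492) and without Nrf2 KO replicate 1 (0.00185). Ccnd1 and Lbh lost the call without any 1 of control replicates 1, 2 and 3 and Nrf2 KO replicates 2 and 3 (adjusted p from 0.0714 to 0.155). Ephb3 lost it without control replicate 1, 2 or 3 (0.0730, 0.0809 and 0.0962), Sox9 without control replicate 2 or 3 (0.0549 and 0.0643), and Bmp4 with any control library left out (0.0552, 0.0814 and 0.106) and with Nrf2 KO replicate 3 left out (0.0614).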

How the data were processed

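RNA enriched on oligo(dT) beads of 3 control and 3 Nrf2 KO samples was sequenced. The authors deposited whole-number counts per gene symbol for each library, and FPKM as 1 value per group. The submitters' processing notes name fastp, FastQC, HISAT2, DESeq2 1.34.0 and the build hg18, without roles. The labels name mouse cells, yet 650 symbols begin with RGD, a rat prefix. The counter, annotation and strand setting are not stated in the labels, so reads of overlapping or antisense genes cannot be separated. Whether mouse reads were counted under a rat annotation, and lost unequally between genes, is not known. Levels between genes, and the FPKM shares of ligands and receptors, are therefore less certain than ratios of 1 gene between groups.

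The main test used edgeR 4.0.16 (R 4.3.3). Genes were filtered with filterByExpr (minimum count 10, minimum total 15), which left 14618, and scaled by TMM. The robust quasi-likelihood test had the group as its only term and was two-sided. Benjamini-Hochberg adjustment ran over all genes tested, with a threshold of 0.05. Each SE is the fold change divided by the root of the F statistic. The fit was tested on simulated data, where it missed most of the smaller changes and called most of the larger ones. Those data had a common dispersion for all genes and no replicate effect. They therefore do not show how many changes were missed here. Alternatives were other scalings and filters, DESeq2 1.42.0, limma-voom (limma 3.58.1), a replicate block and fits with libraries left out. Columns of other samples numbered 0.

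The labels number the replicates without saying what a number marks. Deviations of same-numbered libraries from their group means correlated across genes at 0.754, 0.696 and 0.310, each over 0.1. By these counts alone the numbers were taken as pairs in the block fit. The main test kept the group as its only term, and the 5 members it called were all called with the block too. The closest control to Nrf2 KO replicate 3 was replicate 2 (0.539), so the numbers hardly tell replicates 2 and 3 apart. Replicates of a group differed by a chi-square of at least 15.3 per degree of freedom, so no library was a duplicate.

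The members, the lists and the rule for naming genes were chosen with earlier results of these data known. By that rule, members called by edgeR, by DESeq2, by limma-voom, with the block or without Nrf2 KO replicate 1 are named with their values. So are the 2 members of each role with the highest group FPKM, and up to 10 called genes of each of the 2 further lists. Lgr4, Lgr5, Lgr6, Fzd7, Myc, the markers and the neighbours of called members lie outside it and were picked with their values known. Of the 81 and 40 genes of those lists all had a row, 1 under an older name. Promoter windows and gene order are RefSeq's for GRCm38.p6, and shared runs come from GENCODE M21 transcripts.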

Additional observations from a re-analysis of the deposited data

How the results depend on the processing

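Wnt6, Dact1 and Bambi kept their direction and call in all 15 alternatives run. No gene named here changed sign where it was called. The fit without both replicate 1 libraries was chosen after the data had been seen. Higher and lower calls are given in that order. DESeq2 called 1598 and 1318 genes in all, 6 and 6 members, 10 and 4 other pathway genes and 11 and 4 targets. The replicate block gave 1520 and 1158 genes, 3 and 6 members, 6 and 5 pathway genes and 9 and 4 targets; among the members, the label checks and the called genes of the lists it added calls for Wnt10a, Wnt2, Tcf7, Fzd4 and Nqo1 and removed 0, and it also called Myc and Ephb2. Without both replicate 1 libraries the counts were 3540 and 3253 genes, 9 and 7 members, 23 and 13 pathway genes and 14 and 8 targets. Upper-quartile scaling gave 4 lower pathway genes, no filter on low counts gave 1, and limma-voom gave 2 lower targets. Leaving out 1 library gave 139 to 2323 genes higher and 57 to 2162 lower, 0 to 5 members higher and 1 to 6 lower, 1 to 11 pathway genes higher and 0 to 9 lower, and 1 to 10 targets higher and 0 to 5 lower. In each range the highest value came from the fit without Nrf2 KO replicate 1. The cause was not tested. Where a fit without 1 library called 0 genes of a list in a direction, at least 3 passed an unadjusted p under 0.05. The 27 members not tested had at most 10 counts in any library, too few to show a difference.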

Other observations

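Of the 24 tested protein-coding genes within 6 places of Fzd1, Sfrp4, Rspo1 or Wnt4 on the mouse map, 3 were called (12.5%, beside 8.28% of all tested genes). Beside Fzd1, Cldn12, a tight junction claudin, had a log2 fold change of 1.09 (SE 0.22, adjusted p = 0.0342 by edgeR). Beside Sfrp4, Stard3nl, a late endosome protein, had -0.59 (SE 0.13, adjusted p = 0.0471), and beside Rspo1, Yrdc, an enzyme of tRNA modification, had -0.74 (SE 0.14, adjusted p = 0.0281). Around Wnt4 none of the 5 other tested genes within 6 places passed by edgeR, and 1 of them, Ephb2, had an unadjusted p under 0.05 (log2 fold change -2.64, SE 0.68, adjusted p = 0.0695). Ephb2 was called lower by DESeq2 (adjusted p = 0.00128), after leaving out Nrf2 KO replicate 1 (0.0202) and with replicate as a block (0.0146). They were picked with their values known.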
